A study of Homo sapiens with 6 samples.

Results

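The immediate early genes examined here are 10 transcription factor and stress response genes chosen by hand around the rise of EGR1 in SPINK2-silenced leukaemia cells, namely EGR1, EGR2, EGR3, FOS, FOSB, JUN, JUNB, IER2, IER3 and ATF3. They were found by symbol in a deposited table of 63236 genes, in which all 10 had reads and 8 were among the 17395 genes with an adjusted p-value. The cells were FUJIOKA, an established line of human acute myeloid leukaemia, sequenced in 3 libraries with a scrambled, non-targeting shRNA (shNEG) and 3 libraries with an shRNA against SPINK2 (shSPINK2), a gene of a serine protease inhibitor. Both groups were stably transduced with the Tet-pLKO-puro vector, which carries puromycin resistance and makes the shRNA under doxycycline, so that vector and inducer are shared by the controls. The sample labels name 2 SPINK2 shRNAs and the methods 1. No label says which of them a library carries or whether the libraries came from separate cultures. The SDs given below therefore measure only the spread between these libraries, which may be technical. The SEs of the log2 fold changes are those deposited by the authors from DESeq2, and come from its count model fitted to the same libraries.

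Immediate early genes are those whose transcription starts within minutes of a stimulus, without prior protein synthesis, when MAP kinases activate factors already bound at their promoters, such as SRF with its ELK partners and CREB. EGR proteins are zinc finger factors that bind GC-rich sites and are held back by the corepressors NAB1 and NAB2, whereas FOS and JUN proteins pair through leucine zippers into the AP-1 factor. The transcripts are short-lived, in part through AU-rich elements in their 3′ UTRs. In myeloid cells EGR1 and EGR2 are known for their part in monocyte and macrophage maturation, and JUN and JUNB are known regulators of myeloid growth.

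Promoter sequences are shown because SRF and CREB are known to act there, for members that differed in direction. Of the 10 members, 8 were matched by symbol to a RefSeq table of promoters (GRCh38.p14), each covering 250 bases before and 50 bases after a transcription start, and EGR3 and IER3 were not matched. EGR2 has 3 such windows and ATF3 2, and each was searched. On either strand, the CArG box bound by SRF was found in EGR1 and EGR2, as against 1.29% of the 35116 promoters of the table, and TGACG, the core of the element bound by CREB and ATF proteins, in 7 of the 8, as against 24.6% of all promoters. The 150 bases before the start are printed below, 5′ to 3′ on the strand of the gene, with CArG boxes and TGACG on either strand in capitals, for EGR1 (chr5:138465329-138465478, forward strand), EGR2 (the third of its 3 listed starts, chr10:62816367-62816516, reverse strand) and FOS (chr14:75278678-75278827, forward strand), which rose, and for JUN (chr1:58784048-58784197, reverse strand) and IER2 (chr19:13150261-13150410, forward strand), which fell.
EGR1: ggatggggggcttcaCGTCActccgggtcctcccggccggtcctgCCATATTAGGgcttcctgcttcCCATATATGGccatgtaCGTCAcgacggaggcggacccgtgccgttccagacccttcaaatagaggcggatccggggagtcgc
EGR2: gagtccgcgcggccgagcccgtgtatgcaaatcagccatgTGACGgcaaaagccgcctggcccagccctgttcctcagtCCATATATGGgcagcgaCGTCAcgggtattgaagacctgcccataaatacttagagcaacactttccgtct
FOS: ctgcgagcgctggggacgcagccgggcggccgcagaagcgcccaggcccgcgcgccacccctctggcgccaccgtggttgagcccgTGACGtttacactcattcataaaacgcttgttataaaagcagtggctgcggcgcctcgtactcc
JUN: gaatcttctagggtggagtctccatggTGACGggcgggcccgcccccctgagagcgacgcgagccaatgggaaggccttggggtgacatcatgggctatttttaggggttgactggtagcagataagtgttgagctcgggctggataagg
IER2: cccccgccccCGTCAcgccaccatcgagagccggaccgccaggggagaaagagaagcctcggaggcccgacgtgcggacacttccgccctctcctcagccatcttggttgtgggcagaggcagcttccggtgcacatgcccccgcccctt

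EGR1 and EGR2 thus shared a CArG box near the start, at 105 and 83 bases before the EGR1 start and at 71 bases before the EGR2 start, counted to the first base of the match. Each also had TGACG beside it, at 135 and 66 bases before the start in EGR1 and at 110 and 54 bases in EGR2. In the remaining members TGACG lay 64 bases before the start in FOS, 60 in FOSB, 123 in JUN, 137 in JUNB and 140 in IER2, and no match was found in ATF3, so that the word was held by members that rose and by members that fell. The AP-1 site TGANTCA was found in 0 of the 8 matched members and in 7.71% of all promoters. The EGR site GCGNGGGCG was found in EGR1 and EGR2 and in 9.43% of all promoters. A member with several windows was counted once, whereas the shares are per promoter. Variants of these words, and sites further than 250 bases before a start, were not searched. The lack of a CArG box in FOS and the other members therefore holds only for these windows. These are matches of letters within a window of 300 bases, and binding was not measured.

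The targeted gene and the identity of the cells were examined first. The deposited table gives 1 mean of normalized counts over the 6 libraries and no value per library, and the whole reads behind each mean were recovered for 99.8% of the 11995 genes tested with a mean up to 1600, and for all 10 members. The recovered libraries carry a group but no replicate number and have size factors between 0.985 and 1.03, and within a group their reads are listed in the order of size factor throughout. SPINK2 had 53, 63 and 56 reads with shNEG and 6, 9 and 7 reads with shSPINK2, which is a reduction to 0.127 of the control level. The mean counts summed to 38425214 reads per library. Of 8 genes listed for a myeloid leukaemia line, 6 had a mean over 1000 normalized counts, among them LYZ, CD33 and PTPRC, whereas CD34 had 19.6 and KIT 0.666. Of 10 genes listed for other cells, 0 had a mean over 1000, HBB and EPCAM were at 0, and CD79A (183 normalized counts) and COL1A1 (149 normalized counts) were the highest. LYZ, a lysozyme of maturing myeloid cells, was higher in shSPINK2 (log2 fold change 0.49), as were CD33 (0.36), PTPRC (0.33) and the B cell receptor subunit CD79A (0.59), whereas MPO, the granule peroxidase of immature myeloid cells, was lower (-0.40), as was the collagen gene COL1A1 (-0.61). The part of these shifts in the values below was not tested.

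The 10 genes did not move as a block. EGR1, EGR2, FOS and FOSB were higher in all shSPINK2 libraries than in any shNEG library, by 2.36-fold, 1.96-fold, 1.38-fold and 1.32-fold, while JUN, ATF3, IER2 and JUNB were lower in all of them, at 0.612, 0.659, 0.752 and 0.832 of the control level. EGR3 and IER3 had only a few reads and overlapped between the groups. As this contrast is the one on which the members were chosen, the values are a description and carry no test. The groups did not overlap for 8 of the 10 members, and the same held for 52.0% of the 11974 tested genes with recovered reads. By the deposited adjusted p-value under 0.05, all 8 tested members were called, beside 47.1% of all genes tested, with 4 higher (22.7% of all genes tested) and 4 lower (24.4%), and with the further requirement of an absolute log2 fold change over 1 only EGR1 was called (4.28%). In bulk RNA, fewer cells that express a gene and less RNA per cell cannot be told apart.

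**Figure D1:**
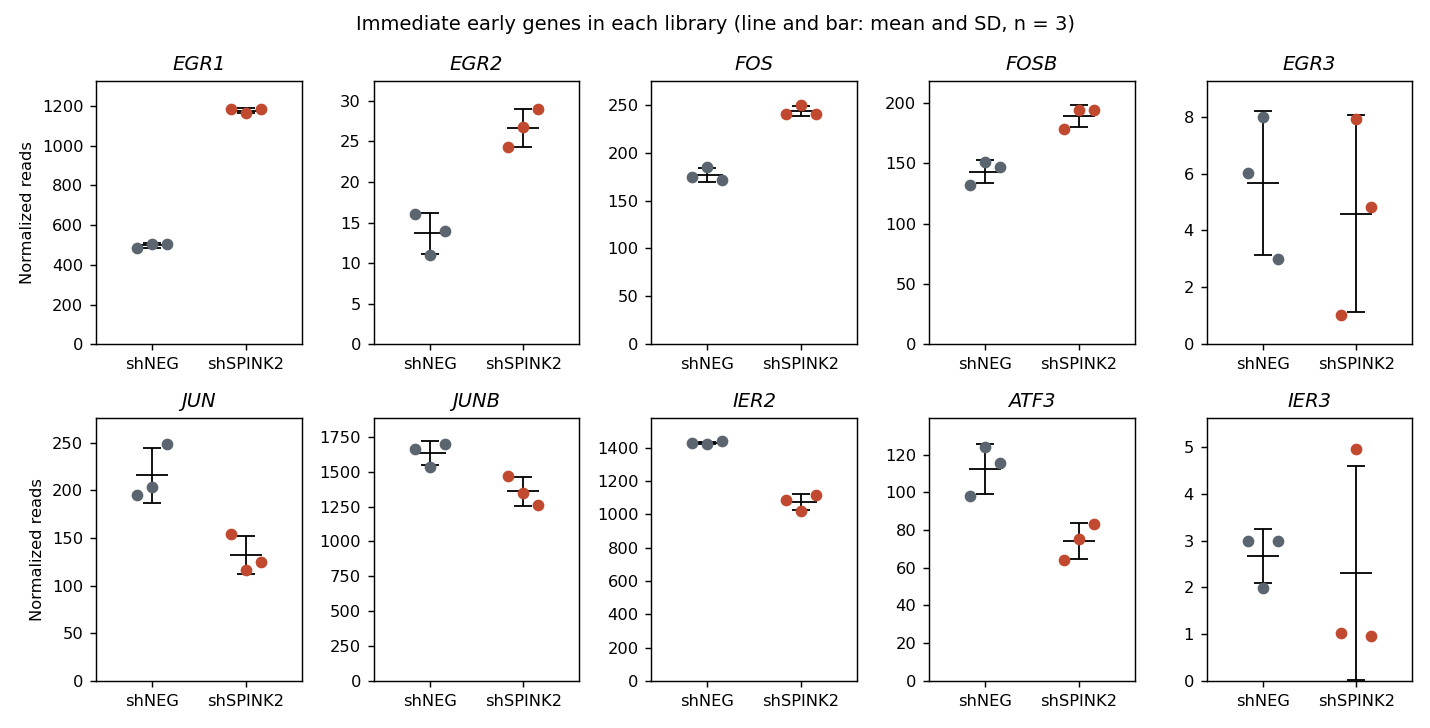
Normalized reads (vertical axes, each starting at 0) of the 10 genes in the 3 shNEG and the 3 shSPINK2 libraries, with 1 point per library and the mean and SD of each group. EGR1, EGR2, FOS and FOSB lie higher in all shSPINK2 libraries, JUN, JUNB, IER2 and ATF3 lie lower, and EGR3 and IER3 overlap.

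Among the EGR family, EGR1 (ENSG00000120738.7, chromosome 5 from 138465479 to 138469303 on GRCh38, 2 exons), a growth and differentiation factor, had the largest change of all members. It had 483, 505 and 508 reads under the control shRNA and 1167, 1174 and 1223 reads under the SPINK2 shRNA. Divided by size factors this is 498 ± 12.8 against 1177 ± 12.1 normalized reads (SD, n = 3), and the libraries of each group lay within a few percent of each other, with a coefficient of variation of 2.56% and 1.03%. The deposited log2 fold change was 1.24 (SE 0.07), which ranked 182 among the 17395 genes tested, and by the Wald statistic EGR1 ranked 77 among the genes called higher.

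EGR2 (ENSG00000122877.15, chromosome 10 from 62811996 to 62819167, 2 exons), which acts in myelination and in macrophage maturation, went the same way with few reads. It had 16, 11 and 14 reads in shNEG and 24, 27 and 30 reads in shSPINK2, or 13.7 ± 2.53 against 26.7 ± 2.34 normalized reads (SD, n = 3). The lowest shSPINK2 library was above the highest shNEG library by 8 reads, and the log2 fold change was 0.97 (SE 0.41). The deposited call of EGR2 was lost at an adjusted p-value under 0.01, and that of FOSB as well. EGR3 (ENSG00000179388.8), a factor of muscle spindle and lymphocyte development, had 6, 8 and 3 reads under shNEG and 1, 8 and 5 reads under shSPINK2. At this depth no difference of EGR3 was detectable, the log2 fold change being -0.30 (SE 0.84), and the gene had no adjusted p-value in the deposited table.

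Among the FOS family, which cannot pair with itself and depends on a JUN partner to bind DNA, both members rose by about the same factor. FOS (ENSG00000170345.9, chromosome 14 from 75278826 to 75282230, 4 exons) had 174, 185 and 172 reads with shNEG and 237, 252 and 248 reads with shSPINK2. FOSB (ENSG00000125740.13, chromosome 19 from 45467995 to 45475179, 4 exons) had 132, 151 and 147 reads in shNEG and 176, 196 and 201 reads in shSPINK2. The groups were apart for both genes, with normalized reads of 177 ± 7.07 against 243 ± 5.42 for FOS and of 143 ± 9.82 against 189 ± 9.10 for FOSB (SD, n = 3). The log2 fold changes were 0.46 (SE 0.13) for FOS and 0.40 (SE 0.14) for FOSB, which is a difference between them smaller than either SE.

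The JUN family, which forms AP-1 with FOS proteins or with itself, went the other way. JUN (ENSG00000177606.6, chromosome 1 from 58776845 to 58784048, a gene with 1 exon) had 195, 204 and 249 reads under shNEG and 152, 118 and 129 reads under shSPINK2. JUNB (ENSG00000171223.5, chromosome 19 from 12791486 to 12793315, also with 1 exon), which restrains JUN and limits myeloid expansion, had 1661, 1535 and 1704 reads with shNEG and 1447, 1360 and 1302 reads with shSPINK2. Both genes were lower in every shSPINK2 library, JUN at 132 ± 19.7 against 216 ± 28.5 and JUNB at 1359 ± 105 against 1632 ± 86.8 normalized reads (SD, n = 3). The log2 fold change of JUN was -0.71 (SE 0.15) and that of JUNB -0.26 (SE 0.07). Among the members with over 100 normalized reads JUN varied most between libraries of a group, with a coefficient of variation of 13.2% among the shNEG libraries and 14.9% among the shSPINK2 libraries.

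Of the remaining members, IER2 (ENSG00000160888.6, chromosome 19 from 13150411 to 13154911, 2 exons), a nuclear protein of the growth factor response, had 1426, 1422 and 1441 reads in shNEG and 1072, 1032 and 1151 reads in shSPINK2. The shNEG libraries differed by only 0.557% (coefficient of variation) for this gene, and its log2 fold change was -0.41 (SE 0.06). ATF3 (ENSG00000162772.16, chromosome 1 from 212565334 to 212620777, 4 exons in the canonical transcript), a factor of the stress response that pairs with JUN proteins, had 98, 124 and 116 reads under shNEG and 63, 76 and 86 reads under shSPINK2. All shSPINK2 libraries were below all shNEG libraries, with a log2 fold change of -0.60 (SE 0.20). IER3 (ENSG00000137331.11, chromosome 6 from 30743199 to 30744548, 2 exons), a regulator of apoptosis, had 3, 2 and 3 reads against 1, 5 and 1, and no adjusted p-value. A further 5 rows of the table carry the IER3 symbol and are at 0 in all libraries, and how reads that match several rows were counted is not given in the sources used here, so that the IER3 level is uncertain.

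**Figure D2:**
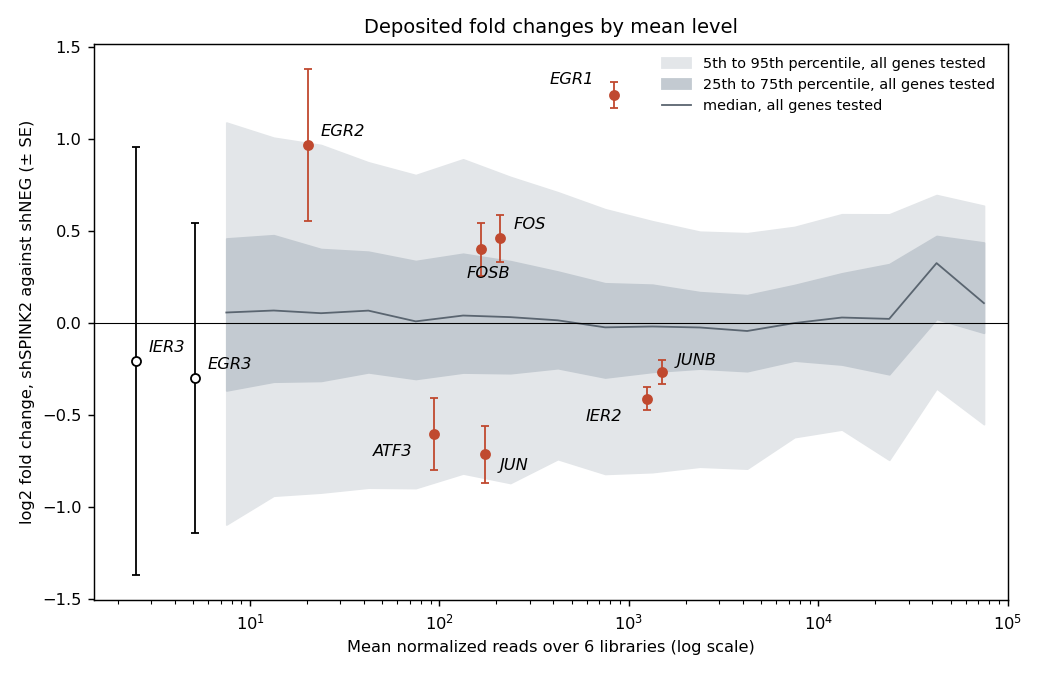
Deposited log2 fold change of shSPINK2 against shNEG with its SE (vertical axis) against the mean normalized reads over all libraries (horizontal axis, log scale), with filled points for the members that have an adjusted p-value and open points for EGR3 and IER3. Bands show the percentiles of all genes tested at the same level. EGR1 (1.24) lies above the band that ends at the 95th percentile and EGR2 (0.97) at its edge, and JUN (-0.71), ATF3 (-0.60), FOS (0.46), FOSB (0.40), IER2 (-0.41) and JUNB (-0.26) lie within it.

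Members that differed in direction were also set against each other within each library, as a ratio of 2 genes needs no size factor. Such a ratio shows that the genes moved apart and not which of them rose or fell, which still rests on the scaling. These ratios were chosen after the values of the single genes were seen and restate them on that scale. In the shNEG libraries there were 0.892, 0.907 and 0.691 FOS reads for each JUN read, as against 1.56, 2.14 and 1.92 in shSPINK2. The ratio was under 1 in all shNEG libraries and over 1 in all shSPINK2 libraries, a rise of 2.26-fold. Reads were not divided by gene length here. Whether a ratio lies above 1 depends on the lengths of the genes, while the fold change between the groups does not. The ratio of EGR1 to IER2 rose as well, with 0.339, 0.355 and 0.353 EGR1 reads for each IER2 read in shNEG and 1.09, 1.14 and 1.06 in shSPINK2. Summed over the AP-1 members, the reads of FOS and FOSB for each read of JUN and JUNB were 0.174 ± 0.02 in shNEG and 0.292 ± 0.03 in shSPINK2 (SD, n = 3), so that JUNB and JUN reads still outnumbered FOS and FOSB reads in every library. Within the FOS pair, FOSB over FOS was 0.759 to 0.855 in shNEG and 0.743 to 0.811 in shSPINK2, and these ranges overlapped. Within the JUN pair, JUN over JUNB was 0.117 to 0.146 in shNEG and 0.0868 to 0.105 in shSPINK2, ranges that did not overlap, so that JUN was lower relative to JUNB as well (0.734 of the control ratio).

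**Figure D3:**
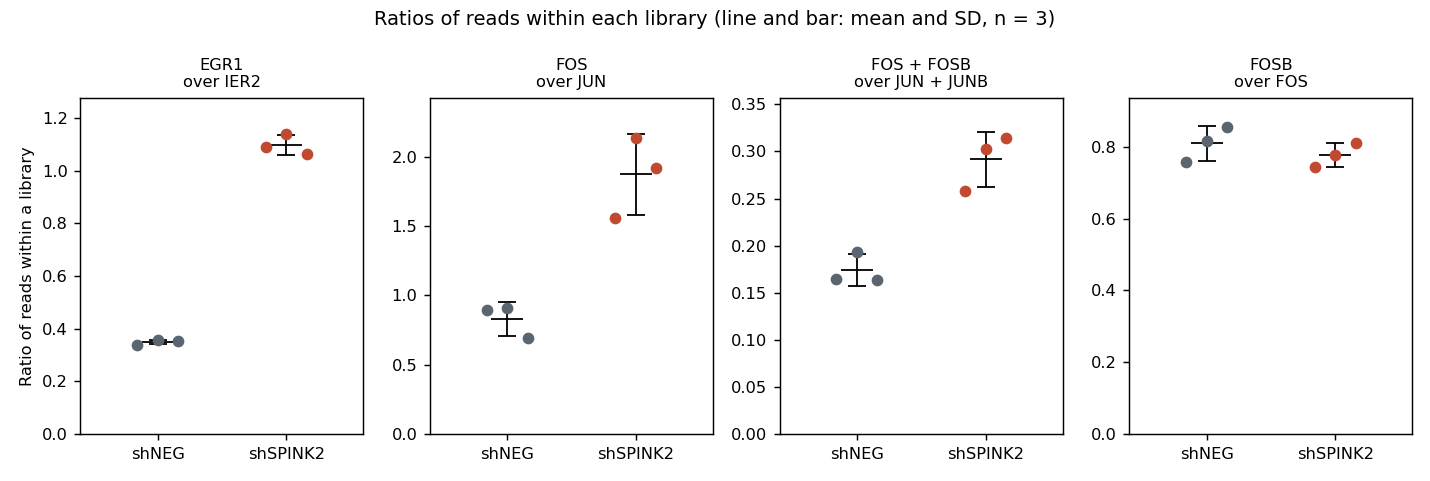
Ratio of the recovered reads of 2 members, or of summed members, within each library (vertical axes, each starting at 0), with 1 point per library and the mean and SD of each group. The first 3 ratios are higher in all shSPINK2 libraries than in any shNEG library (FOS over JUN 1.56 to 2.14 against 0.691 to 0.907), and FOSB over FOS overlaps between the groups.

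To compare levels between genes, normalized reads were divided by the length of the merged exons of each gene in kb. In shNEG the order was JUNB (892 normalized reads per kb), IER2 (464), EGR1 (159), JUN (59.5), FOS (55.5), ATF3 (28.2), FOSB (25.8), EGR2 (3.68), IER3 (1.97) and EGR3 (1.13). The libraries of JUN and FOS overlapped, as did those of ATF3 and FOSB and those of IER3 and EGR3, so that the order within these pairs is not set, while all other neighbours were apart. In shSPINK2 the order began with JUNB (742 normalized reads per kb), followed by EGR1 (375), IER2 (349), FOS (76.4), JUN (36.4), FOSB (34.1), ATF3 (18.5), EGR2 (7.21), IER3 (1.71) and EGR3 (0.913). On merged exons EGR1 had passed IER2, with its lowest library at 371 and the highest IER2 library at 362 normalized reads per kb. FOS stood apart from JUN, whereas JUN overlapped with FOSB and IER3 with EGR3. The order depends on the length chosen, as IER2 has 3079 bases of merged exons and 2110 in its canonical transcript. EGR1 has 3137 by either measure. With canonical lengths IER2 would stay above EGR1 in shSPINK2, and FOS would stand above JUN in shNEG as well. JUNB remained the most abundant member per kb in both groups.

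**Figure D4:**
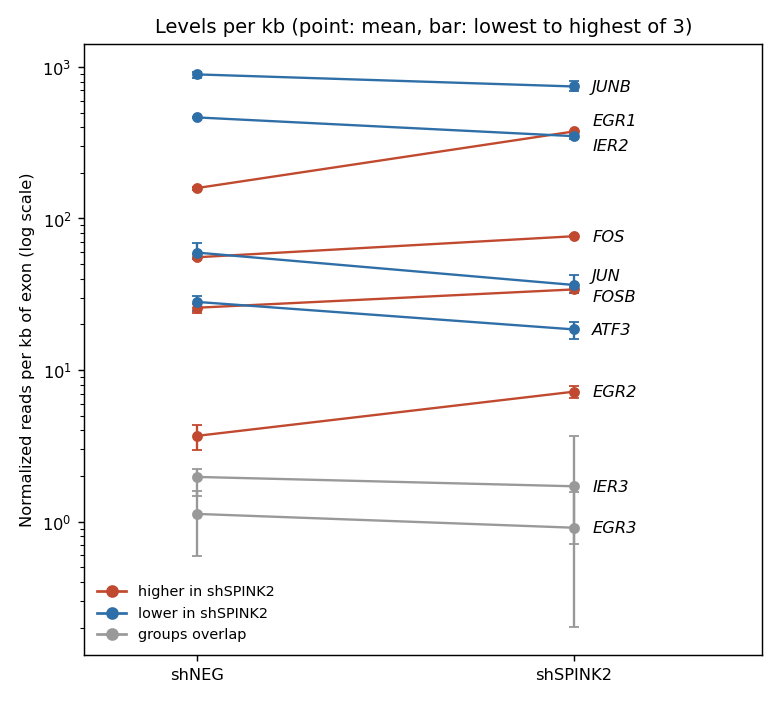
Normalized reads per kb of merged exons (vertical axis, log scale) of the 10 genes in shNEG and shSPINK2, as the mean of 3 libraries with bars from the lowest to the highest library. EGR1 goes from 159 to 375 and crosses IER2, which goes from 464 to 349, and the lines of FOS and JUN and of FOSB and ATF3 part. The crossing depends on the use of merged exons as the length.

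The transcripts were also compared for ATTTA, a word of AU-rich elements that is common in 3′ UTRs and does not by itself mark a short-lived mRNA. In the 3′ UTR of the canonical transcript, ATTTA occurred 6 times in IER3, 5 times in FOS, 3 times each in FOSB, JUN, ATF3 and EGR3, 2 times each in EGR2 and JUNB, 1 time in EGR1 and 0 times in IER2. Of all 19450 canonical 3′ UTRs 67.8% held the word, with a median of 2 occurrences. The genes that rose had between 1 and 5 and those that fell between 0 and 3. The stability of the transcripts was not measured, and the part of these words in either direction was not tested.

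Since the labels name 2 shRNAs, the members were searched for the sites that match bases 2 to 8 of each guide, which are given in capitals within the targets in SPINK2.
shRNA1: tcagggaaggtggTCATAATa
shRNA2: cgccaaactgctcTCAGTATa

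The site of shRNA1 was found in the 3′ UTR of 0 of the 10 members and in 12.4% of all 3′ UTRs. The site of shRNA2 was found 1 time each in the 3′ UTRs of EGR1 and JUN and in 13.2% of all 3′ UTRs. EGR1 rose and JUN fell, and the part of these sites in either change was not tested.

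The rise was not shared by most other genes of the immediate early class. Here and in the lists that follow, a gene is said to have risen or fallen where its deposited DESeq2 adjusted p-value was under 0.05. Its log2 fold change and SE are those deposited. The shares given for all genes tested include genes with few reads and are not matched to the level of the list genes. With a minimum mean of 50, 63.5% of 12594 genes were called and 32.9% were called lower. Of 40 immediate early genes outside the set, 36 were tested, 16 of them fell (44.4%, against 24.4% of all genes tested) and 5 rose (13.9%, against 22.7%), with a median log2 fold change of -0.14 beside 0.01 over all genes tested. Among those that fell were IER5 (-0.74, SE 0.06), a relative of IER2 that acts with heat shock factor, with 1802, 1895 and 1810 reads against 1165, 1043 and 1105, and the differentiation inhibitor ID3 (-1.34, SE 0.17), with 202, 177 and 182 reads against 86, 66 and 71. Those that rose were the antiproliferative genes BTG1 (0.80, SE 0.05) and BTG2 (0.66, SE 0.08), the nuclear receptor NR4A2 (0.86, SE 0.20), PPP1R15A (0.33, SE 0.06), which reverses the translational block of stressed cells, and TNFAIP3 (0.20, SE 0.06), a brake on NF-kB. BTG2 had 504, 506 and 498 reads in shNEG and 781, 807 and 808 in shSPINK2. The NR4A receptors were divided as well, since NR4A2 had 57, 61 and 74 reads against 121, 103 and 128. NR4A1 (log2 fold change -0.30, SE 0.12) had 270, 274 and 267 reads against 232, 209 and 224. NR4A3 had few reads, 5, 9 and 7 against 3, 10 and 8, and was not called (-0.02, SE 0.70). MYC, itself an immediate early gene and a driver of growth, did not pass the test (0.02, SE 0.04, adjusted p = 0.758 from DESeq2). TNFAIP3, the NR4A genes and MYC were named after their values were seen.

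Likeness to EGR1 could be computed only for genes with recovered reads. Over the 6 libraries, among 73 member and list genes with recovered reads, log2 normalized reads had the highest Pearson correlation with EGR1 for BTG2 (0.998), FOS (0.986) and PPP1R15A (0.967). The points share their libraries and size factors and fall into the 2 groups, so that the values mainly say how far apart the groups lie relative to the spread within them. The genes of the lists other than those of the immediate early class that rose all had a mean over 1600 and could not be compared.

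Among the partners and relatives of the EGR factors (NAB1, NAB2, WT1 and EGR4), 2 of 4 tested genes fell (50%, against 24.4% of all genes tested) and 0 rose (against 22.7%). NAB2, a corepressor of EGR1 that is itself an EGR1 target, had 684, 714 and 726 reads in shNEG and 531, 550 and 543 in shSPINK2 (log2 fold change -0.40, SE 0.08). WT1, a zinc finger factor that binds EGR-like sites and is overexpressed in many acute myeloid leukaemias, fell by 1.47 on the log2 scale (SE 0.06). EGR4, the remaining EGR gene, had 16, 15 and 23 reads against 28, 29 and 25, which did not pass the test (log2 fold change 0.59, SE 0.39, adjusted p = 0.213 from DESeq2), and NAB1 did not pass either (-0.02, SE 0.06, adjusted p = 0.802). EGR4 and NAB1 were named after their values were seen.

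Of the other AP-1 and related leucine zipper genes, 10 of 13 tested fell (76.9%, against 24.4% of all genes tested), as JUN and JUNB did. Of the same list 1 rose (7.69%, against 22.7%), and the median log2 fold change was -0.33. FOSL2, a FOS relative, fell by 0.33 (SE 0.05) and MAFG, a small MAF partner of stress response factors, by 0.32 (SE 0.05). The gene that rose was ATF2 (0.28, SE 0.06), a stress kinase target that pairs with JUN, while BATF, a partner of JUN proteins in lymphoid cells, had the smallest change among those that fell (-0.16, SE 0.07). FOSL1, named after its values were seen, had 195, 228 and 223 reads against 128, 159 and 142 (log2 fold change -0.60, SE 0.14), so that within the FOS family FOS and FOSB rose while FOSL1 and FOSL2 fell.

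**Figure D5:**
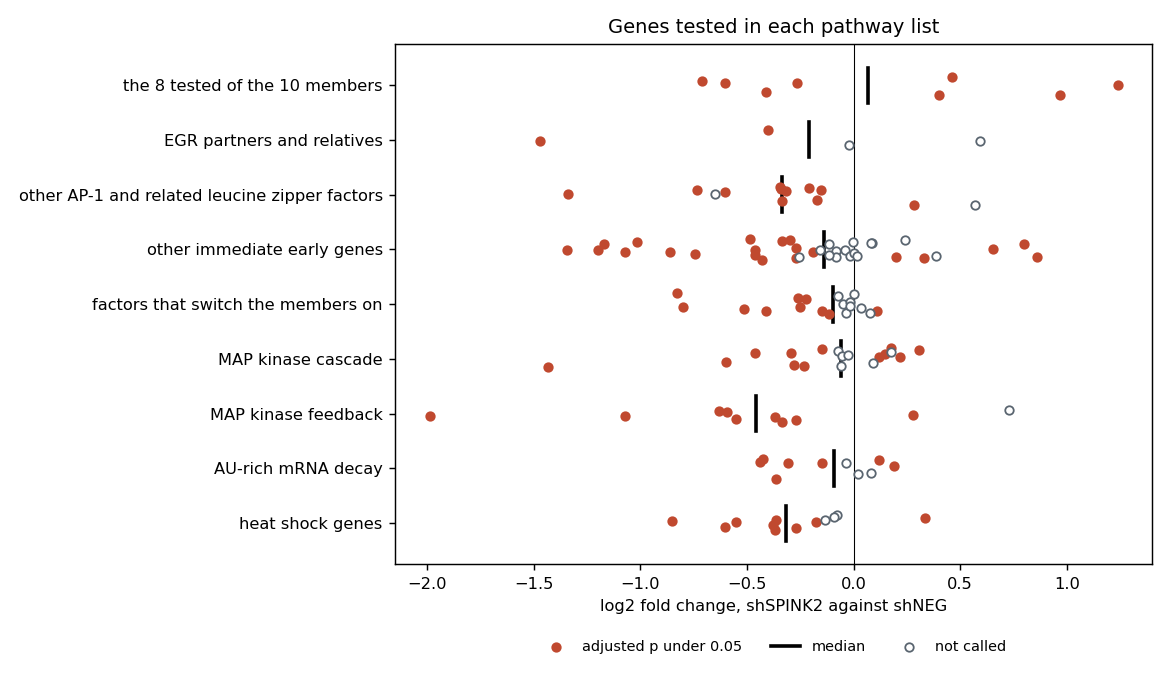
Deposited log2 fold change of shSPINK2 against shNEG (horizontal axis) of the tested members and of the tested genes of 8 lists (rows), with 1 point per gene, filled where the adjusted p-value is under 0.05, and a bar at the median of each row. The medians of all 8 lists lie below 0, between -0.46 for MAP kinase feedback and -0.06 for the MAP kinase cascade, and that of the members lies at 0.07.

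Upstream of the members, 9 of 18 tested genes of the factors that switch them on fell (50%, against 24.4% of all genes tested). Of these 18 genes 1 rose (5.56%, against 22.7%), and the median log2 fold change was -0.10. The CREB coactivator CRTC3 fell by 0.83 (SE 0.07), and of the SRF coactivators MRTFB fell by 0.80 (SE 0.07) and MRTFA rose by 0.11 (SE 0.05). RPS6KA1, a kinase that phosphorylates SRF and CREB, fell by 0.12 (SE 0.04). Of the MAP kinase cascade 7 of 18 genes fell (38.9%, against 24.4% of all genes tested) and 5 rose (27.8%, against 22.7%). The lowest mean among these 18 was 607 normalized counts (MAP2K6). With a minimum mean of 50, the share of all genes called lower was 32.9%, which is nearer to that of this list. NRAS (-1.43, SE 0.05) and HRAS (-0.60, SE 0.07) fell, whereas the kinases MAPK3 (0.30, SE 0.06) and MAP2K3 (0.22, SE 0.05) rose.

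The inhibitors that MAP kinase signalling induces against itself were the list with the lowest median of the 8 (-0.46). Of 10 tested genes 8 were lower (80%, against 24.4% of all genes tested) and 1 higher (10%, against 22.7%). Among those lower, DUSP1, DUSP2 and DUSP5 were also counted with the other immediate early genes, so that these lists are not separate observations. SRF and ZFP36, neither of them called, likewise stand in more than 1 list. SPRY4, a Sprouty inhibitor of RAS signalling, had 494, 535 and 517 reads in shNEG and 128, 136 and 129 in shSPINK2, a log2 fold change of -1.99 (SE 0.12). Of the phosphatases that switch MAP kinases off, DUSP4 fell by 0.63 (SE 0.08) and DUSP5 by 0.27 (SE 0.08), while DUSP6, which acts on ERK in the cytoplasm, rose by 0.28 (SE 0.05). SPRY4, DUSP4 and DUSP5 had the direction of JUN and IER2, and DUSP6 that of EGR1 and FOS. A link between them was not tested. Levels of protein and phosphorylation of the kinases were not measured.

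Of the genes that govern AU-rich mRNA decay, 5 of 10 fell (50%, against 24.4% of all genes tested) and 2 rose (20%, against 22.7%). HNRNPD, which promotes decay of such transcripts, fell by 0.44 (SE 0.05) and ELAVL1, which stabilises them, by 0.36 (SE 0.04), whereas TIA1 (0.19, SE 0.05), a translational silencer, and CNOT8 (0.12, SE 0.05), a deadenylase, rose. Of the heat shock genes, listed as a sign of cell stress, 8 of 12 fell (66.7%, against 24.4%) and 1 rose (8.33%, against 22.7%). Among them HSPH1 was at -0.85 (SE 0.05), DNAJB1 at -0.60 (SE 0.04) and HSF2 at -0.18 (SE 0.07). The small heat shock gene HSPB1 was at 0.33 (SE 0.04). The part of either list in the values of the members was not tested.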

How the data were processed

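Total RNA of 6 FUJIOKA libraries was sequenced by the authors as paired reads of 150 bases on an MGI G400, checked with FastQC, aligned to GRCh38 with STAR, counted per gene with featureCounts and compared between shSPINK2 and shNEG with DESeq2. The submitters' processing notes name STAR 2.7.11 and DESeq2 1.40.0, and the annotation release and the strandedness of counting are not given in the sources used here. The deposited table holds a signal, which is the mean over all libraries of counts that the authors divided by size factors, together with the log2 fold change and its standard error, the Wald statistic, which is a score deposited from DESeq2, and each p-value and Benjamini-Hochberg adjusted p-value deposited by the authors. Of its per-sample columns 0 were left unmapped, as it has none.

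Whole reads per library were computed here. Where a gene has only 1 read in all libraries, its mean depends on the size factor of the library that holds the read. Each such mean is shared by over 500 genes, whose fold changes tell by their sign which group the library belongs to. For any other gene with a mean up to 1600, sets of 6 whole numbers that return the deposited mean were searched. The search reached 4 SD of a library's reads to either side of the fitted level of its group. Several sets could return the mean, 156 for JUNB and 27 for IER2. The fold change was refitted for each set, with the dispersion taken from the deposited standard error. Reads were accepted where only 1 set matched the deposited fold change within a small tolerance. The step was tested on simulated data. Recovered libraries are named in the order of their size factors and carry no replicate number. Reads carry no molecular identifiers, so that duplicate reads of 1 molecule were not told apart. Levels per kb used merged exons of GENCODE release 44, and renamed genes were matched by Ensembl ID.

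The members, the 8 lists, the rule for named genes and the tests were chosen with earlier results of these data known. The rule names all members, SPINK2, the 2 genes with the highest and the 2 with the lowest Wald statistic among the called genes of each list, and the 3 genes most like EGR1. Calls are the deposited adjusted p-value under 0.05, and no count model was fitted here. Alternatives were other thresholds, adjustments, minimum means, centring, size factors, averages and libraries left out. Scripts ran in Python 3.11.15 with pandas 2.3.3, numpy 2.4.6 and scipy 1.17.1, and plots were drawn with matplotlib 3.10.9.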

Additional observations from a re-analysis of the deposited data

How the results depend on the processing

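With each library left out in turn, the log2 difference of EGR1 stayed between 1.22 and 1.25, that of EGR2 between 0.83 and 1.10, FOS between 0.44 and 0.49, FOSB between 0.35 and 0.44, JUN between -0.84 and -0.60, JUNB between -0.32 and -0.21, IER2 between -0.44 and -0.38 and ATF3 between -0.69 and -0.51, whereas EGR3 (-0.95 to 0.17) and IER3 (-1.43 to 0.16) crossed 0. Reads without size factors, geometric means and centring on the median of all genes (0.01) kept the direction of the 8 called members. Of these 8, an adjusted p-value under 0.01 called 6 (not EGR2 and FOSB) beside 6956 of the 17395 genes tested, adjustment over all 32220 genes with a p-value called 7 (not EGR2) beside 7645, a minimum mean of 50 called 7 (not EGR2) beside 8002 of 12594, Bonferroni adjustment called 2 (EGR1 and IER2) beside 4370 of 17395 and a test against an absolute log2 fold change of 0.5 called 1 (EGR1) beside 1077 of 17395 (6.19%). The deposited comparison called 8198 (47.1%). That last test called 12 of the 116 tested list genes where 78 were called in the deposited comparison, and 4 of the other immediate early genes as lower where 16 were, beside 4.12% and 24.4% of all genes called lower. No paired analysis was possible because the recovered libraries carry no replicate number. Depth limits EGR3 and IER3, and EGR2 by its few reads.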
